A study of Mus musculus with 17 samples.

Results

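Dense H3K27ac domains holding BRG1 are stretches of mouse chromosomes in which acetylated regions lie close together and at least 1 BRG1 peak is present. They were chosen by the positions of the deposited regions and peaks. H3K27ac regions on chromosomes 1 to 19 were joined into a domain where the gap between neighbours was 10000 bp or less, and a domain was kept where it held 20 or more regions and its span overlapped 1 or more BRG1 peaks of postnatal day 12 (P12) by 1 bp or more. Of 47537 H3K27ac domains, 1195 held 20 or more regions, and 1119 of these held P12 BRG1.

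The series measured BRG1 and histone marks by ChIP-seq in spermatogenic cells of mouse testes, in 17 libraries including inputs. BRG1 was mapped in wild type CD1 cells at P12 and at P18, with 2 libraries at each age. H3K27ac was mapped at P12 in mice of mixed background, with 2 libraries from Brg1WT and 2 from Brg1cKO testes, the latter a conditional knockout made with Mvh-cre, a Cre driven by a germ cell promoter. The H3K27ac regions that form the domains are those in the list of regions shared by Brg1WT and Brg1cKO, so the domains describe acetylation found in both genotypes. Each group has a single list of peaks or regions, so no value has an error between replicates, and read depth is not known from lists of regions. The BRG1 lists are named as merged, but all peak names in a list carry 1 mark, P12B1 at P12 and P18B2 at P18, whose meaning is not stated. Whether each list rests on both libraries, and whether the ages differ in batch, is therefore not known, and this bears on every comparison of P12 with P18 peaks below. BRG1 and H3K27ac came from mice of different backgrounds. The cells were a sieved suspension of digested testes, and the lists hold no expression values against which their make-up could be checked.

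SWI/SNF is a remodelling complex that slides and evicts nucleosomes and so opens regulatory DNA, and BRG1 is its motor, an ATPase. Acetylation of histone H3 at lysine 27 marks active promoters and enhancers, and clusters of such regions are known to lie at highly transcribed loci and in gene-rich stretches. In the first wave of spermatogenesis germ cells enter meiosis before P12, and by P18 pachytene spermatocytes are abundant.

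The 1119 domains held 40299 common H3K27ac regions, 24.1% of the autosomal regions, in 105 Mb of span. A domain had a median of 29 regions, with 50% of domains between 24 and 42, and at most 163. Its median span was 82.8 kb, from 24.4 to 378 kb. Acetylated regions covered 14.3 Mb, or 13.6% of the span, and the rest was gap. The number of regions per length was much the same as in small domains, with a median of 3.79 per 10 kb. It was 3.62 in the 6106 domains of 2 to 19 regions with P12 BRG1. Single regions were about as wide in both, at a median of 300 and 287 bp. The dense domains were longer than the small ones, and their regions covered more of the span, 13.6% against 11.7% when pooled. A span begins and ends at a region, which raises the number per 10 kb where regions are few. That number therefore does not settle which domains were tighter. At the threshold, 79 of the 93 domains with 20 regions held P12 BRG1 and 85 of the 103 with 19 regions did, with a median of 2 P12 peaks in both.

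The 10 domains with the most regions are the long end of this range. On chromosome 10, chr10:80301552-80674416 held 163 regions and 41 P12 peaks, and chr10:79228634-79585355 held 158 regions and 42 P12 peaks, the most of any domain. Chromosome 5 gave 3 of the 10. The first, chr5:135339198-135664585, held 163 regions and 23 P12 peaks, the second, chr5:115713911-116033727, held 159 and 31, and the third, chr5:125584182-125858852, held 131 and 20. The others were chr3:94809040-95122508 with 139 regions and 16 P12 peaks, chr7:29343270-29668371 with 137 and 24, and chr11:96635473-97013086 with 132 and 28. The last 2 were chr4:132472369-132694015 with 125 regions and 25 P12 peaks and chr8:73000433-73256983 with 124 and 22. These 10 spanned 222 to 378 kb. The map of the 6 with the most regions shows that BRG1 was spread along each domain rather than gathered at one site.

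**Figure D1:**
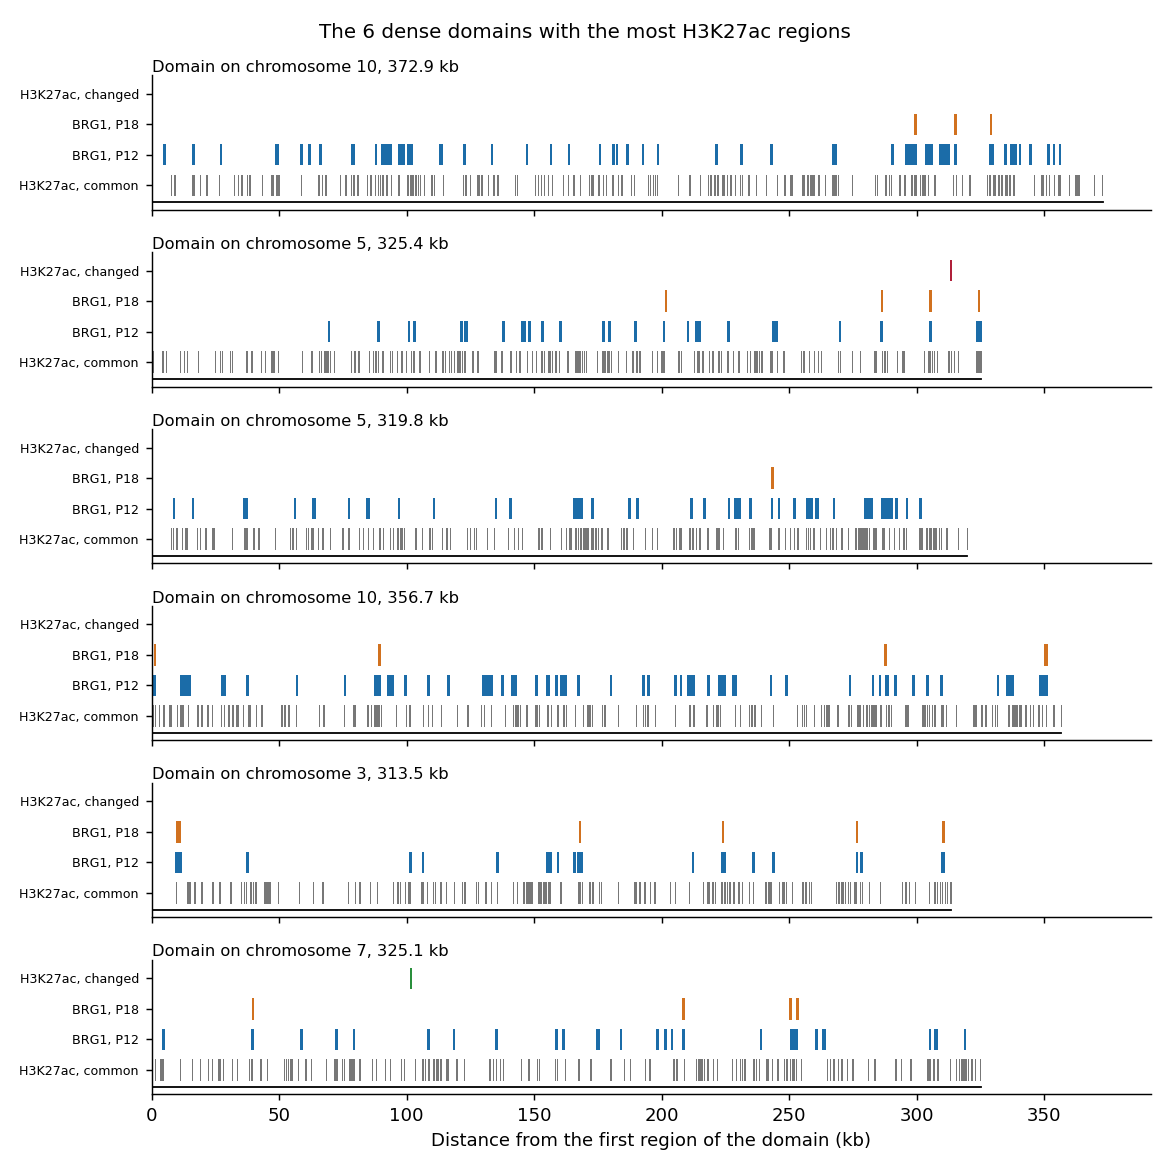
The 6 dense domains with the most H3K27ac regions, with distance from the first region in kb on the x axis and 1 row each for common H3K27ac regions (grey), P12 BRG1 peaks (blue), P18 BRG1 peaks (orange) and changed H3K27ac (green gained, red lost). Peaks and changed regions narrower than 1 kb are drawn 1 kb wide, and common regions narrower than 0.5 kb are drawn 0.5 kb wide. Between 16 and 42 P12 peaks lie along each domain, against 1 to 5 P18 peaks.

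Dense domains lay unevenly over the chromosomes. Chromosome 11 held the most, 133, and 37.6% of its common regions lay in them. Chromosomes 17 (36.4%) and 7 (33.7%) followed. The lowest shares were on chromosome 13, with 20 domains and 9.50% of regions, and on chromosomes 3 (13.6%) and 1 (14.2%). The share of P12 BRG1 peaks that lay in dense domains followed the same order loosely, from 7.99% on chromosome 13 to 41.4% on chromosome 17. On chromosome 10 the 2 shares stood furthest apart, at 32.7% of P12 peaks and 23.1% of regions. These shares are descriptions, since both lists entered the rule, and they were not tested.

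**Figure D2:**
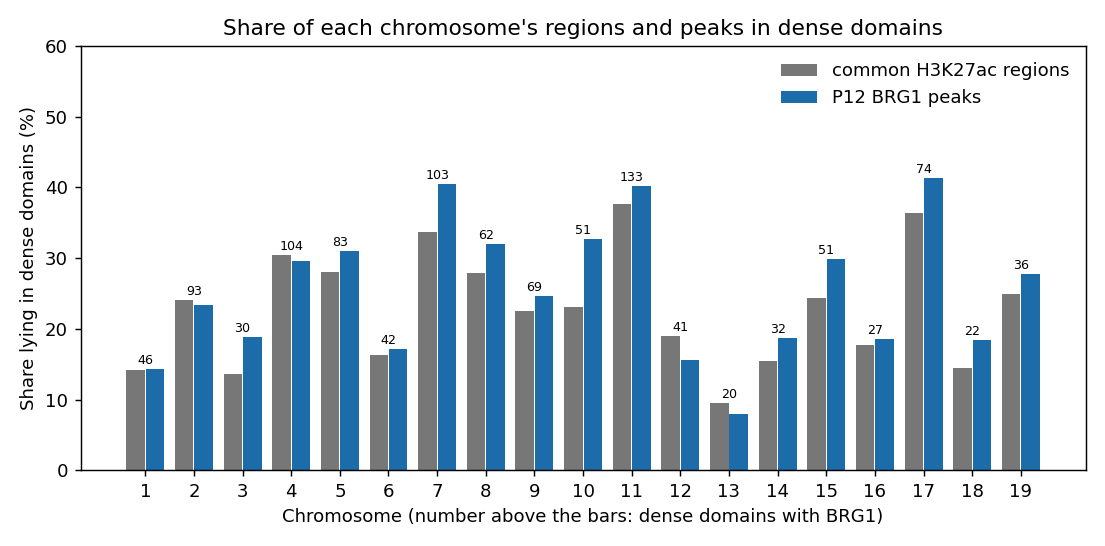
Share of each autosome's common H3K27ac regions (grey) and P12 BRG1 peaks (blue) that lie in dense domains with BRG1, in percent, with the number of such domains above each pair of bars. Chromosomes 7, 11 and 17 stand highest and chromosome 13 lowest.

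Many dense domains had another one nearby. The median distance from a dense domain to the nearest other one, on either side, was 89.4 kb, and 575 of the 1119 (51.4%) had another within 100 kb. The same distance for other H3K27ac domains is not given, so a closeness particular to dense domains is not shown. With domains joined over up to 100 kb, a rule set after their positions were seen, 544 stood alone and 103 lay in 16 runs of 5 or more. The longest runs had 9 domains, at chr7:52099944-53192328 and chr4:132890930-134564193.

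P12 BRG1 was not limited to a single peak in most of the domains. The domains held 5047 P12 peaks, 27.5% of the 18336 autosomal ones, from 1 to 42 each with a median of 3. A single peak was found in 206 domains (18.4%), 4 to 9 peaks in 413 (36.9%) and 20 or more in 19 (1.70%). Larger domains held more peaks per length. The 563 domains with 20 to 29 regions held 4.10 P12 peaks per 100 kb, the 382 with 30 to 49 held 4.53, the 149 with 50 to 99 held 5.61 and the 25 with 100 or more held 7.58. Per 100 regions the values were 11.6, 11.8, 13.7 and 16.5. In small domains with BRG1 there were 19.1 P12 peaks per 100 regions, but there the rule asks for 1 peak among few regions, which raises the value.

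**Figure D3:**
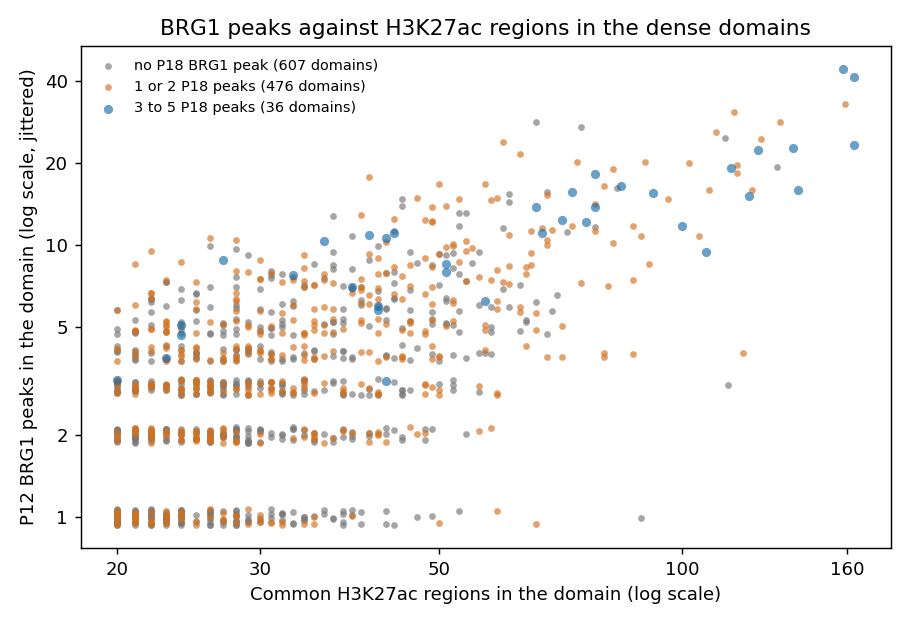
P12 BRG1 peaks (y axis, log scale, jittered) against common H3K27ac regions (x axis, log scale) in the 1119 dense domains, coloured by the number of P18 BRG1 peaks (grey none, orange 1 or 2, blue 3 to 5). Both counts grow with the span, and the 607 domains with no P18 peak lie mostly at the lower left.

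Among large domains the number of BRG1 peaks still varied widely. The wide domain chr17:83999919-84334825 spanned 335 kb, the fourth widest, and held only 4 P12 peaks and 1 P18 peak. In contrast, chr7:19873178-20113224 held 116 regions in 240 kb and 30 P12 peaks. The densest domain, chr8:126061124-126177626, had 114 regions in 117 kb, or 9.79 per 10 kb, with 44.9% of its span covered, and held 3 P12 peaks and no P18 peak. The next by density were chr8:124430891-124455307, with 20 regions at 8.19 per 10 kb, and chr11:32427188-32458753, with 25 regions at 7.92 per 10 kb. Each of these held 2 P12 peaks. Per 100 kb of span the 3 held 2.58, 8.19 and 6.34 P12 peaks in this order, so the first lay below and the others above the values of their size classes given earlier.

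Most P12 peaks in dense domains sat on acetylated regions, as did 81.1% of those in small domains and 58.8% of all autosomal ones. The latter include peaks outside any domain, which cannot overlap a common region. Peaks can also meet closely spaced regions by position alone, which was not tested. Of the 5047 in dense domains, 3714 (73.6%, 95% interval 72.3 to 74.8) overlapped a common region, and in 478 dense domains (42.7%) every P12 peak did. In 39 domains (3.49%) no P12 peak did, and BRG1 lay in gaps or over an edge. The peaks on acetylated regions were stronger than the 1333 in gaps, with a median −log10 q, the authors' peak strength, of 4.10 against 2.79, and they were wider, with a median of 989 against 461 bp. Intervals here and below are exact Clopper-Pearson intervals and cover counting error only.

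Of the acetylated regions in dense domains, 5582 (13.9%) carried a P12 peak. These were wider, with a median of 398 bp (50% between 274 and 589) against 289 bp (224 to 401) for the other 34717. By width, 5.67% of regions of up to 150 bp carried a P12 peak, 8.32% of those wider than that and up to 250 bp, 10.6% of the next up to 350 bp, 16.0% of the next up to 500 bp and 29.03% of those over 500 bp. In small domains with BRG1 the share also grew with width, from 11.9% to 47.2%. A wide region can more easily meet a peak. The widest region of a domain, with a median of 897 bp, carried P12 BRG1 in 452 of 1119 domains (40.4%, 37.5 to 43.3) and P18 BRG1 in 136 (12.2%, 10.3 to 14.2).

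P12 BRG1 was spread from the ends to the middle of the domains much as the acetylated regions were. Of the P12 peaks centred inside a domain, 39.0% lay in the outer 20% at either end and 21.1% in the middle 20%. Common regions gave 39.8% and 20.1%, and P12 peaks found at P18 gave 41.7% and 19.97%.

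The P18 list was not used to choose the domains, but the rule asked for a P12 peak. Of all 3020 autosomal P18 peaks, 97.8% overlapped a P12 peak. The contrasts below with all domains and with domains without P12 BRG1 are therefore largely set by the rule. Of the 1119 domains, 512 (45.8%, 42.8 to 48.7) held a P18 BRG1 peak, where 5.06% of all 47537 domains did. They held 705 P18 peaks, 23.3% of that list. A single P18 peak was present in 368 domains, 2 in 108 and 3 to 5 in 36. Domains of 20 or more regions without P12 BRG1 held none, 0 of 76, which allows a share of up to 3.95% when 3 counts are taken as the limit, or 4.74% by the exact interval. The largest of these 76 was chr11:50427184-50577034, with 43 regions, 10.03 kb from the nearest P12 peak. The next were chr9:45026531-45154464 and chr8:34890102-34984234, with 35 regions each and the nearest P12 peak 15.8 and 11.3 kb away.

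Compared with BRG1-holding domains of 2 to 19 regions, of which 1758 of 6106 (28.8%, 27.7 to 29.9) held a P18 peak, the dense domains did so more often. They were also longer, with a median span of 82.8 against 16.1 kb, and per length they held fewer P18 peaks, 6.71 against 15.4 per Mb. The rule asks each small domain for a P12 peak in a short span, which raises its peaks per length. P12 peaks stood at 48.1 per Mb in dense and 66.0 in small domains. These rates therefore do not show a lower P18 density in dense domains. By a two-sided Fisher's exact test with domains as units, the odds ratio for holding a P18 peak was 2.09 (1.83 to 2.38) with an adjusted p of 2.1e-27 over 3 tests. This compares classes of domains, and it is no test of an age. Among domains with 1 P12 peak the shares were 28.2% in 206 dense and 28.2% in 4862 small domains, with an odds ratio of 0.998 (0.719 to 1.37) and an adjusted p of 1 by the same exact test. With 2 peaks they were 37.9% and 29.5%, with an odds ratio of 1.45 (1.04 to 2.01) and an adjusted exact p of 0.0722. With 3 peaks they were 43.3% and 33.3%, with an odds ratio of 1.53 (1.01 to 2.32) and an adjusted exact p of 0.13. With 4 or more they were 56.9% and 38.5%, with an odds ratio of 2.11 (1.38 to 3.23) and an adjusted exact p of 0.000816. In this last class dense domains had a median of 6 P12 peaks and small ones 4. Each class was adjusted together with the tests of gained and lost regions, and not over the classes of peak number. With equal numbers of 1, 2 or 3 P12 peaks the difference did not pass the threshold after this adjustment. Before it, the exact p was 0.0241 at 2 peaks and 0.0434 at 3, so the call there can depend on which tests are adjusted together. At 2 and 3 peaks the odds ratios and their unadjusted intervals still lay above 1, so equal shares are not shown there.

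**Figure D4:**
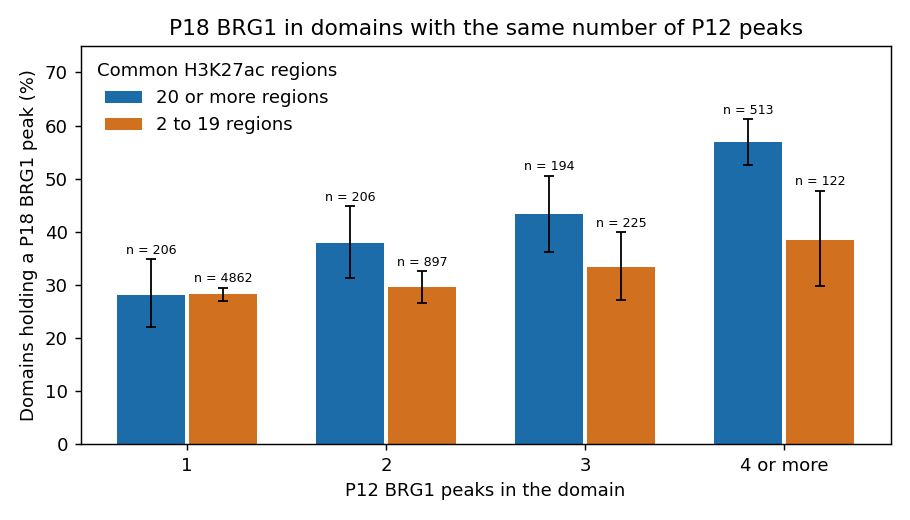
Share of domains that hold a P18 BRG1 peak, in percent, by the number of P12 BRG1 peaks in the domain, for dense domains (blue) and domains of 2 to 19 regions (orange). Bars show the share, error bars the exact 95% interval and n the number of domains; the shares are equal at 1 peak and furthest apart at 4 or more.

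Counted peak by peak, P12 peaks were found at P18 less often in dense than in small domains, although more of the dense domains held a P18 peak. Of the 5047 P12 peaks in dense domains, 685 (13.6%, 12.6 to 14.5) overlapped a P18 peak. For the 7911 P12 peaks in small domains it was 23.2% (22.3 to 24.1), for the 4721 outside any domain 5.10% (4.49 to 5.77), and for all autosomal P12 peaks 15.9%. The peaks differed in strength too, with a median −log10 q of 3.64 in dense domains, 4.93 in small domains and 3.32 outside. Peaks of a domain share their source, so these shares were not tested.

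With P12 peaks split into 5 equal bins of strength, the shares in dense and small domains lay within each other's intervals in the first 4 bins but not in the strongest. In the weakest bin (−log10 q up to 2.53) 0.0796% of peaks in dense and 0.185% in small domains were found at P18, and in the second (2.53 to 3.49) 1.87% and 2.56%. In the third bin (3.49 to 4.70) it was 8.40% (6.76 to 10.3) and 9.62% (8.14 to 11.3), and in the fourth (4.70 to 6.45) 25.4% (22.6 to 28.3) and 24.3% (22.4 to 26.3). In the strongest bin (6.45 to 18.2) it was 46.9% (43.3 to 50.6) and 51.1% (49.1 to 53.1). Outside domains the strongest bin gave 23.98% (19.5 to 28.9). The strongest bin held 14.5% of the peaks in dense domains and 30.02% of those in small ones, and what part this has in the lower share of dense domains was not tested. In bins of peak width the lower share remained. In the third of 5 width bins (636 to 953 bp), 10.1% (8.26 to 12.3) of peaks in dense and 21.2% (19.2 to 23.2) in small domains were found at P18.

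**Figure D5:**
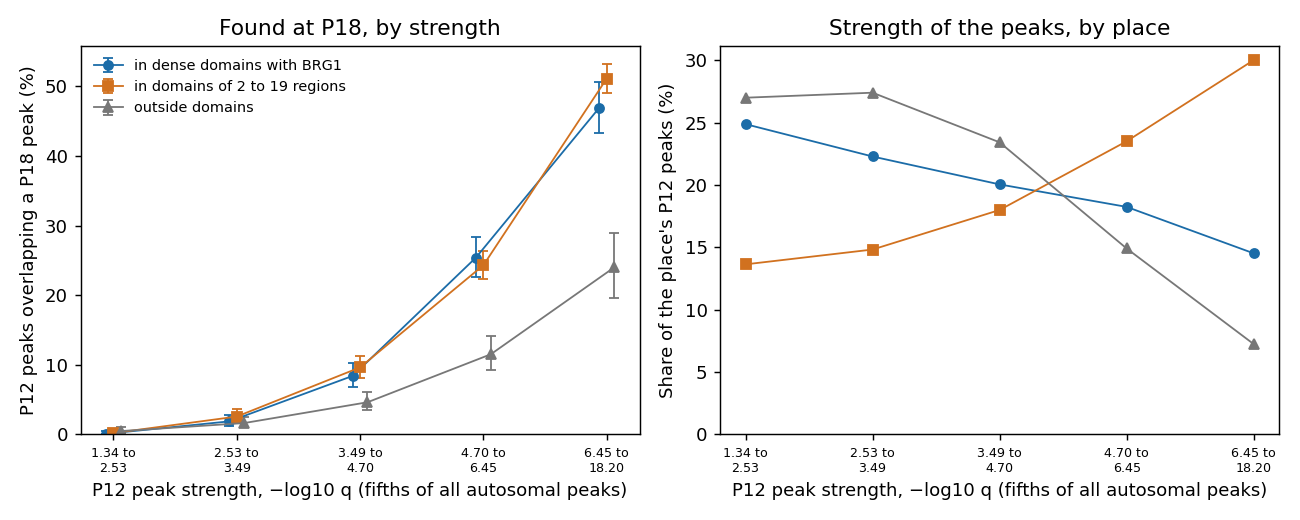
Left, share of P12 BRG1 peaks that overlap a P18 peak, in percent, in 5 bins of P12 strength (−log10 q), for dense domains (blue), domains of 2 to 19 regions (orange) and peaks outside domains (grey), with exact 95% intervals. Right, the share of each place's P12 peaks that falls in each bin; on the left, dense and small domains are furthest apart in the strongest bin (46.9% and 51.1%), and on the right dense domains have fewer of the strongest peaks.

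Within a dense domain the strongest P12 peak was the one most often found at P18. The strongest peaks had a median −log10 q of 6.37, from 1.48 to 16.2, and 371 of 1119 (33.2%, 30.4 to 36.0) were found at P18. The other 3928 peaks had a median of 3.17, and 314 (7.99%, 7.16 to 8.89) were found. In 453 domains with 2 or more P12 peaks, 1 or more was found at P18. The strongest was among those found in 315 of them (69.5%, 65.1 to 73.7). Of all 2822 P12 peaks in these 453 domains 22.3% were found. That share is pooled over peaks and weighs domains with many peaks more, so it is no baseline for the share per domain. Acetylation followed the same order, with a common region under 88.2% of the strongest peaks and 69.4% of the others. Small domains with BRG1 had this order too, with 27.8% of the strongest and 7.53% of the other P12 peaks found at P18.

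P12 peaks in gaps of dense domains were seldom found at P18, 29 of 1333 (2.18%, 1.46 to 3.11). On common regions 656 of 3714 (17.7%, 16.4 to 18.9) were found. The peaks in gaps were also weaker, with a median −log10 q of 2.79 against 4.10, and narrower, at 461 against 989 bp. Peaks of like strength or width were not compared, so what part acetylation has in this was not tested. Of the 705 P18 peaks in dense domains, 611 (86.7%, 83.9 to 89.1) overlapped a common region. Of the 2315 P18 peaks elsewhere 77.4% (75.6 to 79.1) did. The latter include peaks outside any domain, which cannot overlap a common region, so the 2 shares do not compare like places. All but 11 of the 705 (98.4%) lay at a P12 peak, much as 97.8% of all 3020 autosomal P18 peaks did. H3K27ac was measured at P12 alone, so this sets BRG1 at P18 against acetylation at P12.

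The 5 domains with the strongest P12 peaks were of moderate size, and in each the strongest peak was found at P18 and lay on a common region. They were chr18:75119858-75223077 with a highest −log10 q of 16.2 and 42 regions, chr1:155333404-155412746 with 15.1 and 42 regions, and chr6:52589760-52674369 with 15.1 and 21 regions. The other two were chr11:102373159-102427309 with 14.2 and 20 regions, and chr9:96580276-96666862 with 13.9 and 26 regions. Each held 6 or fewer P12 peaks, and the 4 after the first held 1 or 2. In the 10 domains with the most regions the highest −log10 q lay between 6.36 and 11.9.

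P18 peaks were most numerous in 3 domains with 5 each. The first, chr3:94809040-95122508, held 16 P12 peaks, 5 of which were found at P18, among them its strongest with a −log10 q of 11.9. The second, chr8:73000433-73256983, held 22 P12 peaks and the third, chr11:69571758-69754868, held 15. A further 7 domains held 4, the widest of which were chr10:79228634-79585355 and chr5:135339198-135664585. At the other end, 3 domains held 24 or more P12 peaks and no P18 peak. They were chr10:79782593-79979844 with 28 P12 peaks and a highest −log10 q of 10.9, chr10:80779890-80907493 with 28 and 6.62, and chr7:52775669-53023471 with 24 and 6.35.

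Few dense domains held H3K27ac that changed in Brg1cKO, though a larger share of them did than of any other class. A gained region lay in 58 domains (5.18%, 3.96 to 6.65) and a lost region in 71 (6.34%, 4.99 to 7.94), where 0.541% and 0.526% of all domains held one. In small domains with BRG1 the shares were 1.36% and 1.46%. Neither was present in 995 dense domains (88.9%), and both were present in 5. Of the 1723 autosomal gained and lost regions only 2 overlapped a common one, so they fall in gaps, and long domains have more gap. Per Mb of gap, dense domains held 0.650 gained (0.495 to 0.839, exact Poisson interval) and 0.849 lost regions (0.670 to 1.06). Small domains with BRG1 held 0.794 (0.634 to 0.983) and 0.870 (0.701 to 1.07), and small domains without BRG1 held 0.733 (0.606 to 0.879) and 0.556 (0.446 to 0.685). The rates of dense and small domains with BRG1 lay within each other's intervals.

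Dense domains with and without P12 BRG1 did not differ detectably in this. Of the 76 without, 2 held a gained and 2 a lost region (2.63%, 0.320 to 9.18, for each). For gained regions the odds ratio was 2.02 (0.517 to 17.4) with an adjusted exact p of 0.58, and for lost regions 2.51 (0.645 to 21.5) with an adjusted exact p of 0.47. The intervals hold both large and no differences. The odds ratios take no account of span, whose median was 82.8 kb with and 70.5 kb without BRG1. Within the longer 50% of spans, with only 15 domains without BRG1, the odds ratios turned to 0.9505 and 0.571. Within the shorter 50%, with 61 such domains, it was 2.44 for gained regions and could not be computed for lost ones. Not even the direction is settled.

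Gained and lost regions in dense domains were narrow, with a median of 128 and 121 bp against 300 bp for the common regions there. Of the 59 gained regions in dense domains 8 (13.6%, 6.04 to 24.98) lay within 1 kb of a P12 peak, and of the 77 lost regions 16 (20.8%, 12.4 to 31.5), and 4 of each overlapped one. Elsewhere 2.46% of 896 gained and 4.92% of 691 lost regions lay within 1 kb. P12 peaks are frequent in dense domains by the rule, at 48.1 per Mb, and what part this has in the difference was not tested. No domain held more than 2 changed regions. Of the 12 with 2, the widest was chr16:91333552-91578432, with 1 gained and 1 lost region, followed by chr11:97255058-97449087 with 2 lost. The next were chr4:137408881-137600805 with 1 of each, and chr11:69571758-69754868 and chr4:135633879-135793119 with 2 lost each.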

How the data were processed

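Chromatin digested with micrococcal nuclease was immunoprecipitated and sequenced, per the labels' protocols. The authors deposited 5 lists used here, in build mm9, and the submitters' processing notes name Bowtie, Bowtie2, SAMtools, Picard, deepTools 2.5.2 and MACS2 without role or order. BRG1 lists are merged by name, in a way not given in the sources used. The strength of a BRG1 peak is the deposited −log10 q value. Deposited starts and ends gave all other values, and coordinates are printed counted from 1. Scores of H3K27ac regions, whose scale is not stated, were not used. Gene annotation in mm9 was not used here, so domains are named by coordinates. H2AK119ub1 and input libraries were not analysed here.

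Domains, overlaps and tests were computed with Python 3.11.15, numpy 2.4.6, pandas 2.3.3 and scipy 1.17.1, and were tested on simulated data. Overlap meant 1 bp or more. Fisher's exact test, two-sided, was run between classes of domains, and p-values were adjusted over 3 tests (Benjamini-Hochberg, threshold 0.05). Tests within classes of P12 peak number took the place of the first of these 3. Domains are not replicates, and the tests describe associations between lists. Named domains were the 10 with the most regions, the 5 with the widest span, the most P12 peaks, the most P18 peaks, the strongest P12 peak or the most changed regions, the 3 densest, the 3 with the most P12 and no P18 peaks, and the 3 largest without BRG1. The domains, rules and tests were chosen with earlier results of these data known.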

Additional observations from a re-analysis of the deposited data

How the results depend on the processing

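The number of dense domains with BRG1 followed the joining rule. It was 348 with gaps of up to 5000 bp, 1687 with 20000 bp and 556 with 30 or more regions, against 1119. Under the same 3 settings and with 15 or more regions, the share holding a P18 peak was 35.3%, 55.96%, 53.1% and 40.4%, and it was 11.98% for P18 peaks with a −log10 q of at least 3. Overlap of P12 peaks with P18 was 11.8%, 14.98% and 12.5% under the first 3. It was 21.4% for P12 peaks with a −log10 q of at least 3, 17.7% for P12 peaks on a common region, 3.37% when 50% of a peak had to be covered and 2.85% for P18 peaks with a −log10 q of at least 3. In the 5 bins of width, added after the data were seen, it was 0.378%, 3.04%, 10.1%, 21.5% and 29.2%. The share of P12 peaks on a common region was 83.9% and 67.3% with gaps of 5000 and 20000 bp and 82.0% at a −log10 q of at least 3, and it is 100% by construction where peaks had to lie on one.

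The odds ratio for holding a P18 peak was 0.998 with 1 P12 peak, 1.45 with 2 and 1.53 with 3, none past the threshold after the adjustment used. For gained regions the odds ratio turned to 0.503 and 0.979 with gaps of 5000 and 20000 bp, 0.900 at a −log10 q of at least 3 and 0.9505 in the longer 50% of spans. For lost regions it turned to 0.251 with 30 or more regions and 0.571 in the longer 50%. None of these passed a test, and the cause was not tested. Of 74 alternatives with a value, the other 41 changed no direction or call and moved no share beyond its interval and no count by more than 1.5 times. No odds ratio could be computed where the class without BRG1 held no changed region, which was so for gained regions with 30 or more regions and for lost regions with gaps of 5000 bp or in the shorter 50% of spans. No paired analysis was possible because each group has 1 list with no values per library, and for the same reason no library could be left out. Depth is unknown, so a longer P12 than P18 list cannot be told apart from deeper sequencing.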

Other observations

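The runs of neighbouring domains with the most P12 peaks differed in how many of these peaks were found at P18. The run chr10:79228634-80674416 held 8 dense domains in 1.45 Mb with 588 common regions. It held 160 P12 peaks, 15.8% of those on chromosome 10 and 48.5% of those in dense domains of that chromosome, or 27.2 per 100 regions. Of the 160, 11 (6.88%) were found at P18, and their median −log10 q was 3.28. The run chr7:52099944-53192328 held 9 domains with 103 P12 peaks, of which 5 (4.85%) were found, at a median −log10 q of 3.13. In the third, chr11:68647719-69898201, 17 of 86 P12 peaks (19.8%) were found at P18, at a median −log10 q of 3.74, and each of its 6 domains held a P18 peak. On chromosome 4, chr4:132890930-134564193 held 9 domains with 49 P12 peaks, of which 11 (22.4%) were found, and 2 gained and 4 lost H3K27ac regions, while the chromosome 10 run held none of either. These runs were singled out after their values were seen and were not tested.

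The widest P12 peak of the dense domains, chr5:143574417-143586422, was 12006 bp wide, against a median of 822 bp, and had a −log10 q of 6.40. It was not found at P18 and lay in a domain of 122 regions that held 15 P12 peaks and 1 P18 peak.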
